A study of Homo sapiens with 10 samples.

Results

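The MYB family of transcription factors was followed in ST486 cells, an established line from a human Burkitt's lymphoma, after lentiviral delivery of a short hairpin RNA (shRNA) against the kinase gene STK38. The family has 3 members, MYB, MYBL1 and MYBL2, and its rows were all probe sets that the array's annotation assigns to 1 of these genes and no other. That gave 11 of 12625 probe sets, 8 for MYB, 2 for MYBL1 and 1 for MYBL2. The genes were chosen by earlier results of this same comparison, so the differences of their probe sets are given as a description, with errors but without a test. The tested cells carried the STK38 shRNA (Sigma TRCN0000010215), and the control cells a non-target shRNA (Sigma SHC002); both were collected 60 h after transduction, with 5 arrays per group and 10 in all. The labels name 1 hairpin against STK38 and 1 cell line, so an effect of this hairpin on other transcripts and an effect of STK38 cannot be told apart. Nothing in the labels ties a replicate to a culture of its own, so errors and p-values cover the spread of these arrays alone, and that spread may be technical. RNA was hybridised to the Affymetrix HG-U95Av2 array, and values are log2 expression, where a difference of 1 is a doubling.

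MYB family proteins bind DNA through repeats of the Myb domain and activate or repress the genes at those sites. MYB (c-Myb) is needed for blood progenitors and early lymphocytes and falls as these cells mature. MYBL1 (A-Myb) is known from male germ cells and from germinal centre B cells. MYBL2 (B-Myb) is present in nearly all dividing cells; it is switched on in late G1 by E2F factors and joins the MuvB complex to activate genes of G2 and mitosis, many of them together with FOXM1. The series title asks how STK38 bears on MYC, and MYC has been described as a target of MYB, so MYC stands beside the family below.

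The bases upstream of MYB and MYBL2 are shown because both genes were lower with the STK38 shRNA, and because regulators of these genes read this DNA. The 250 bases before each gene start were taken from RefSeq, build GRCh38.p14, at chr6:135181058-135181307 for MYB and chr20:43666864-43667113 for MYBL2, both on the plus strand and 5′ to 3′. Both of these genes matched the promoter table by symbol; MYBL1 was not analysed here at this level. Capitals mark the E2F letters TTGGCGGG and the E-box CACGTG, the site MYC binds with MAX.
MYB: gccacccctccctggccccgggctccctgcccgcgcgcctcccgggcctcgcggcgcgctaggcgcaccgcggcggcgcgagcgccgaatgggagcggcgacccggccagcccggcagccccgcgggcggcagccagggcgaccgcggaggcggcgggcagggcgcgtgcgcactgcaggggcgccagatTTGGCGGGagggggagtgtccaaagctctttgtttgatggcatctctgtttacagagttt
MYBL2: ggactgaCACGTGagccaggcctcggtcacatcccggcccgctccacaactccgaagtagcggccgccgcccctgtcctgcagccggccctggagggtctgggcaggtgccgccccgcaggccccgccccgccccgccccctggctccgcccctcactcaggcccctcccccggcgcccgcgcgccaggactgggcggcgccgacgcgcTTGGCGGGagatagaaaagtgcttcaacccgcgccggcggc

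Each promoter held the E2F letters once, on the strand of the gene, from 60 to 53 bases before the start of MYB and from 41 to 34 bases before the start of MYBL2. Both matches stood in the same run of 10 bases, TTGGCGGGAG. These E2F letters were picked after the sequences had been read, so their presence in both windows was fixed in advance. Of the 35116 promoters in the table, 1.07% held them on either strand in the same window, a share given as description only. MYBL2 held 1 E-box, from 243 to 238 bases before its start, and MYB held 0; 6.34% of promoters held one. The E2F letters TTTGGCGC (0.55% of promoters) and TTTCGCGC (0.439%), and the cell cycle element CHR as TTTGAA (13.3%) or TTCGAA (1.19%), were found in neither window. The short MYB site AACNG was found once upstream of MYB, on the opposite strand, and not upstream of MYBL2, while 70.6% of promoters held it. All motifs were searched on both strands and none of the matches overlapped. A match describes the letters in these windows and does not show that a factor binds there.

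**Figure D1:**
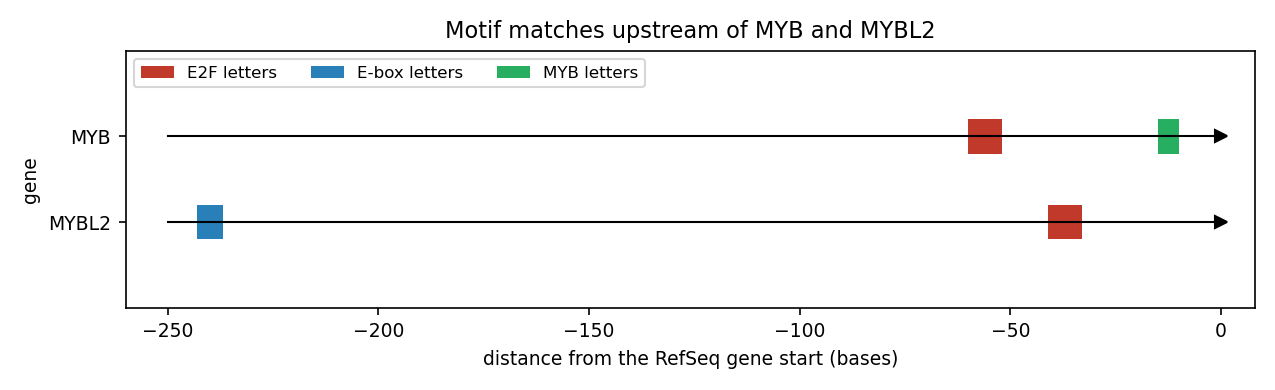
Matches to the motifs in the 250 bases upstream of MYB (upper line) and MYBL2 (lower line), drawn to scale against distance from the RefSeq gene start in bases. Both genes carry the E2F letters close to the start, at 60 to 53 and at 41 to 34 bases, and the E-box is upstream of MYBL2. The E2F letters were picked after both sequences had been read.

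The targeted gene was lower with its hairpin. All 3 STK38 probe sets were lower on every STK38 shRNA array than on every control array, with log2 differences of -2.19, -1.16 and -0.82. The arrays had values from 0.35 to 12.65, and their number limits the precision. STK38 shRNA replicate 4 stood apart from its group: its mean correlation with the other arrays of the group was 0.982, where theirs with the group were at least 0.992, and its upper quartile was 3.54, where those of the other 4 arrays were at least 3.93. The family's results are therefore also given without it. Of the B cell markers on the array, MS4A1, CD79A, CD79B, CD22 and CD74 were above the array background on all 10 arrays, and PAX5 on none. CD79A was higher with the STK38 shRNA, at 8.71 ± 0.15 against 8.22 ± 0.15 in controls (SD, n = 5 each), without overlap of the groups. The groups of the other B cell markers overlapped. The 3′ minus 5′ signal difference of ACTB, a sign of RNA quality, lay between 0.775 and 1.01 on STK38 shRNA arrays and between 0.82 and 1.03 on control arrays. In a bulk sample, fewer cells of a type and less RNA per cell cannot be told apart.

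MYB was lower with the STK38 shRNA at every probe set that gave a signal above background. Probe set 2042_s_at had log2 values of 6.11, 6.18, 6.26, 6.16 and 6.08 on the STK38 shRNA arrays, against 7.58, 7.70, 7.72, 7.71 and 7.52 on the control arrays. The groups were separated by 1.26, far more than the spread within either group. The group means were 6.16 ± 0.070 with the STK38 shRNA and 7.65 ± 0.092 in controls (SD, n = 5 each), a difference of -1.49 (SE 0.082), or 2.80-fold lower with a 95% interval of 2.48 to 3.16.

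The other 5 MYB probe sets above background differed more. At 1475_s_at, where the difference was largest, the values were 2.78, 3.32, 2.92, 2.36 and 2.78 with the STK38 shRNA, against 4.83, 5.25, 5.19, 5.23 and 4.64 in controls. That is a difference of -2.20 (SE 0.177), or 4.58-fold lower, with an interval of 3.52 to 5.95. The groups did not overlap, and STK38 shRNA replicate 4, the lowest array, was not above background. At 1476_s_at the values were 3.74, 3.92, 3.88, 2.52 and 3.74 with the STK38 shRNA, against 5.87, 5.56, 5.89, 5.66 and 5.61 in controls. The difference was -2.16 (SE 0.224), or 4.46-fold. Again replicate 4 was the lowest array, and the other 4 lay close together.

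The remaining 3 probe sets gave differences of the same order. 1472_g_at averaged 3.40 ± 0.57 with the STK38 shRNA and 5.44 ± 0.24 in controls, which is 4.10-fold lower. 1474_s_at averaged 2.90 ± 0.50 with the STK38 shRNA and 4.86 ± 0.28 in controls, which is 3.89-fold lower. 1473_s_at averaged 2.85 ± 0.19 with the STK38 shRNA and 4.52 ± 0.31 in controls, which is 3.18-fold lower (SD, n = 5 each). At none of the 6 probe sets did the groups overlap, and the gap between them ran from 0.99 to 1.64. The probe sets are assigned to the same gene and share their arrays, so they are repeated views of 1 gene and not 6 results.

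STK38 shRNA replicate 4 carried part of the size of the MYB difference. It was the lowest array of its group at 5 of the 6 probe sets, by 1.31 below the mean of the other 4 arrays at 1476_s_at and by 0.24 at 1473_s_at, while at 2042_s_at it lay 0.005 above that mean. Signal on that array was above background at 2 of the 6 probe sets, where each other array of both groups was above it at all 6. Without replicate 4 the differences were -1.49 at 2042_s_at, -1.90 at 1476_s_at, -1.84 at 1472_g_at, -2.08 at 1475_s_at, -1.74 at 1474_s_at and -1.62 at 1473_s_at, or 2.80-fold to 4.22-fold lower.

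The last 2 MYB probe sets were dim. 41854_at had values of 1.53, 1.63, 1.69, 1.70 and 1.55 with the STK38 shRNA, against 2.14, 1.84, 1.91, 2.05 and 2.01 in controls. Those groups did not overlap, but no array was above background, so no fold is given. 1471_at lay between 1.14 and 1.37 with the STK38 shRNA and between 1.14 and 1.39 in controls, also never above background, and its groups overlapped.

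**Figure D2:**
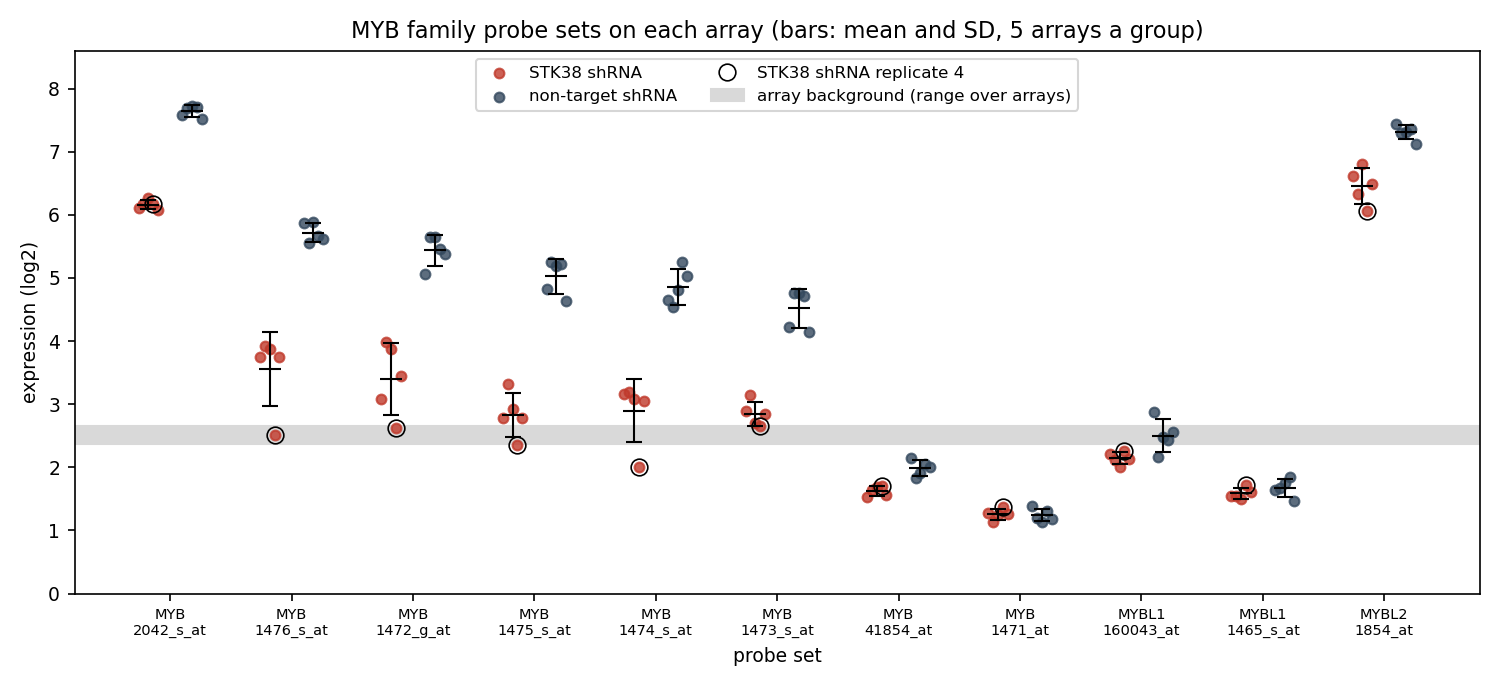
Log2 expression of the 11 MYB family probe sets on each array, with STK38 shRNA arrays left of the control arrays for each probe set; horizontal ticks with bars are the mean and SD of 5 arrays, open circles mark STK38 shRNA replicate 4, and the grey band is the range of array backgrounds. The groups are apart at 6 MYB probe sets above the band and at MYBL2, and MYBL1 lies near or under the band.

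MYBL2 was lower as well, by less. Its single probe set, 1854_at, had values of 6.62, 6.32, 6.80, 6.06 and 6.49 with the STK38 shRNA, against 7.44, 7.30, 7.32, 7.36 and 7.13 in controls. All arrays were above background and the groups were separated by 0.33, with a wider spread among STK38 shRNA arrays, where replicate 4 was again lowest. The means were 6.46 ± 0.28 with the STK38 shRNA and 7.31 ± 0.11 in controls (SD, n = 5 each), a difference of -0.85 (SE 0.124), or 1.80-fold lower with a 95% interval of 1.50 to 2.16. Without replicate 4 the difference was -0.75, or 1.68-fold. The differences of MYB and MYBL2 come from the same comparison that chose them, and whether they differ from each other was not tested.

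MYBL1 was at the edge of detection. Probe set 160043_at had values of 2.21, 2.12, 2.01, 2.26 and 2.12 with the STK38 shRNA, against 2.88, 2.16, 2.47, 2.43 and 2.56 in controls. The groups overlapped through control replicate 2. With the STK38 shRNA 0 arrays reached a signal above background, and in controls only 2 did, so neither a fold nor a bound is given. The measured means were 2.14 ± 0.098 with the STK38 shRNA and 2.50 ± 0.26 in controls (SD, n = 5 each). With a background that leaves out the reverse-strand probe sets of ACTB and GAPDH 4 arrays with the STK38 shRNA and all 5 in controls were above it. The limma fit lost its call on this probe set when STK38 shRNA replicate 2, 3 or 5 or control replicate 1, 3 or 5 was left out, with differences from -0.44 to -0.26 over the 10 fits that leave out 1 array. 1465_s_at lay between 1.50 and 1.72 with the STK38 shRNA and between 1.46 and 1.84 in controls, and was not above background on any array.

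Across the array, the fit in limma with Benjamini-Hochberg adjustment called 1192 of 7535 tested probe sets lower with the STK38 shRNA at the 0.05 threshold, which is 15.8%, and 1064 higher. Of the 11 family probe sets, 8 passed the filter on dim signal and all 8 were among those called lower; the other 3, 2 of MYB and 1 of MYBL1, were too dim to be tested. Over all tested probe sets, 12.8% were lower with no overlap of the groups, and 7 of the 8 tested family probe sets were. Nothing is read from these counts, since this comparison chose the genes and 6 of the 8 are of MYB. By size, the MYB differences ranked from 10 (1475_s_at) to 74 (2042_s_at) among the 7535 when ordered from the most negative, and MYBL2 ranked 302. MYBL1, near background, is given no rank. The median over all tested probe sets was 0.018.

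**Figure D3:**
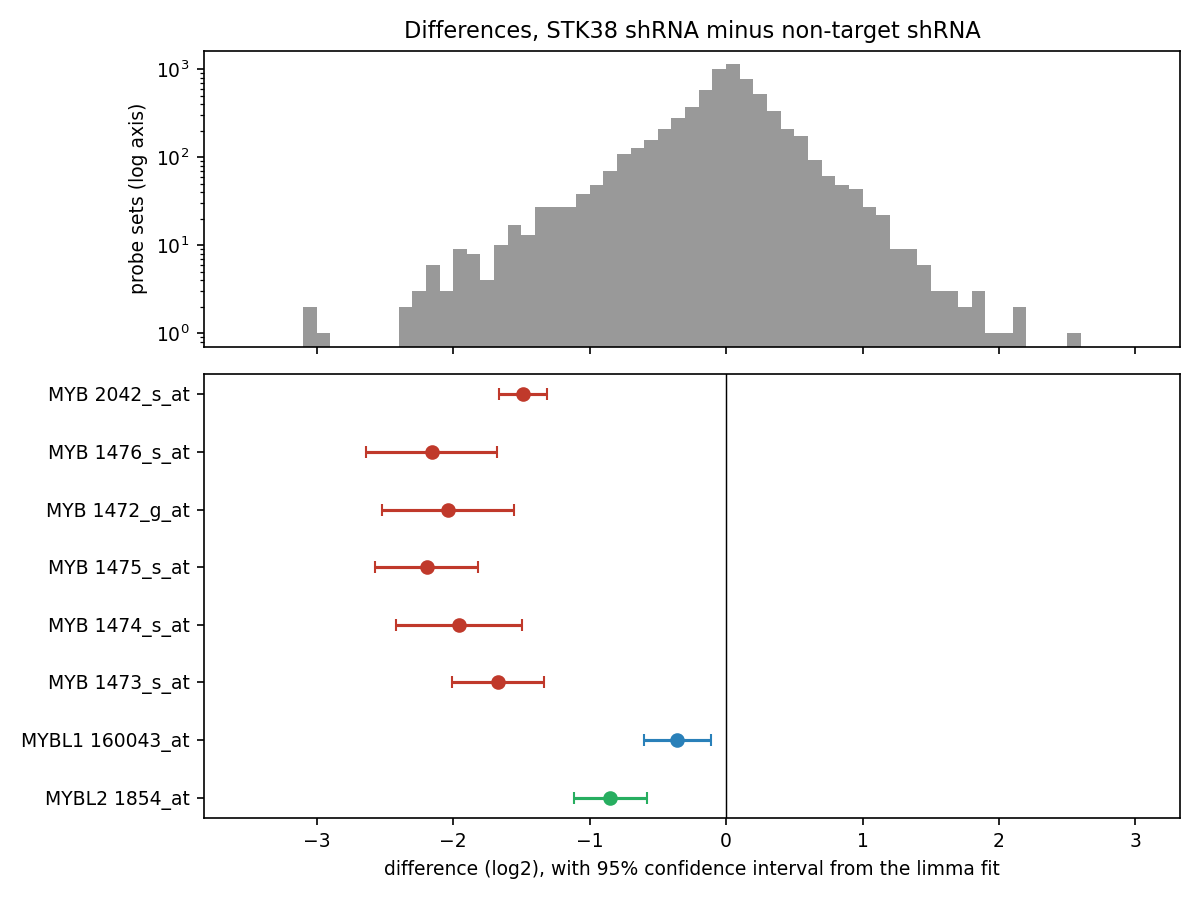
Upper panel, the distribution of log2 differences, STK38 shRNA minus non-target shRNA, over the 6645 tested probe sets assigned to 1 gene, with the number of probe sets on a log axis; lower panel, the 8 tested MYB family probe sets with 95% confidence intervals from the limma fit. MYB lies from -2.20 to -1.49, and MYBL2 at -0.85, while the MYBL1 point rests on signal near or under background, and no fold is given for it.

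MYC was lower at all 4 of its probe sets. Probe set 37724_at had values of 7.55, 7.50, 7.48, 6.72 and 7.24 with the STK38 shRNA, against 8.94, 8.43, 8.64, 8.44 and 8.95 in controls, a difference of -1.38 (SE 0.154), and its 4 probe sets lay between -1.64 and -1.38. MYC 37724_at, 1973_s_at and 1936_s_at, STK38 370_at and 36218_g_at, MYBL2 and 5 MYB probe sets were all lowest on STK38 shRNA replicate 4. MYB 2042_s_at and MYC 1827_s_at were not, and STK38 36217_at had its highest value of the group on that array, 3.18. Each of these genes was compared with the same 5 control arrays, so the values are set side by side and no relation between them is drawn.

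**Figure D4:**
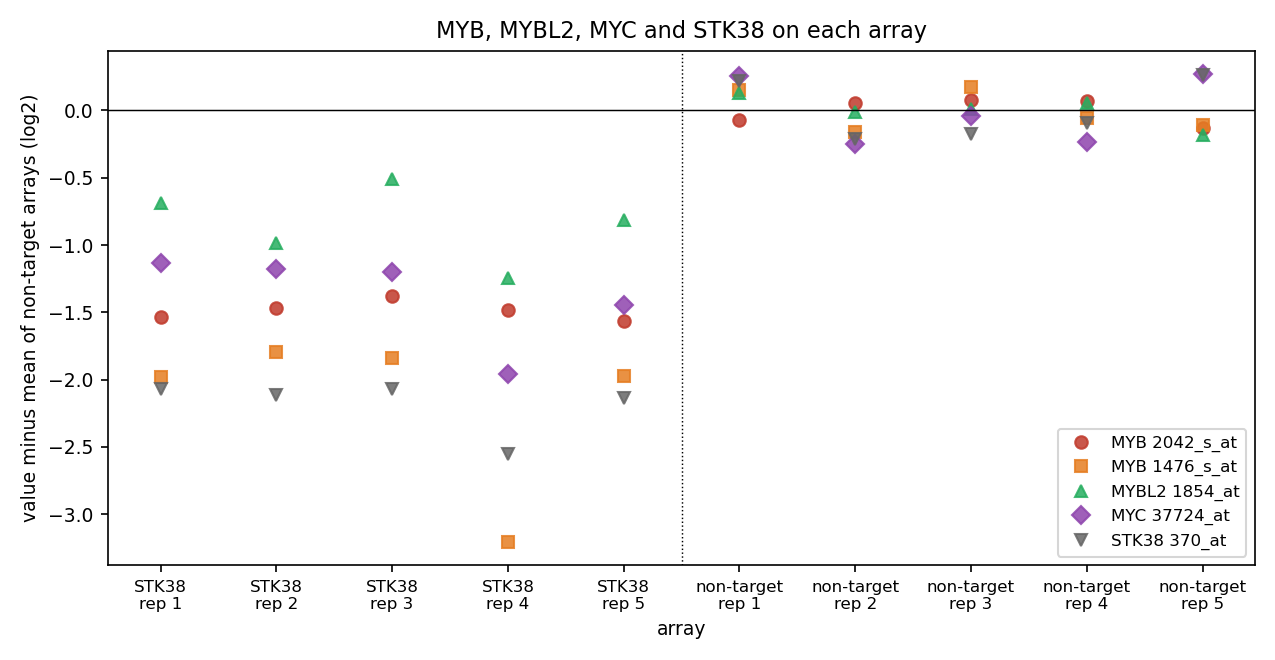
Values on each array minus the mean of the 5 control arrays (log2) for 2 MYB probe sets, MYBL2, MYC 37724_at and STK38 370_at, with the STK38 shRNA arrays on the left and the control arrays on the right. STK38 shRNA replicate 4 is the lowest array for all of these but MYB 2042_s_at, and MYB 2042_s_at is nearly level over the STK38 shRNA arrays.

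Genes that act with or downstream of the family were then read from lists compiled from general knowledge, with 1 probe set per gene, the one of highest mean signal. Over the 5403 genes tested in this way, limma called 15.8% lower and 15.2% higher, and the median difference was 0.019. The lists were drawn up with earlier results known, so their counts are no independent support, and a gene that passes the filter through the group in which it is high had to differ.

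Reported targets of MYB in blood cells included 8 of 15 measured genes that fell and 0 that rose, with a median difference of -0.55. Measured without the filter on dim signal, 8 of 26 fell, 0 rose and the median was -0.050. RAG2, a subunit of the recombinase of immunoglobulin genes, had values of 3.17, 3.08, 3.26, 2.12 and 3.19 with the STK38 shRNA, against 6.08, 5.44, 5.87, 5.90 and 6.24 in controls. Its fall of 2.94 (SE 0.210, limma adjusted p = 1.21e-07) was the largest on the list, and replicate 4 was under background. Its other probe set fell by 1.59, with 1 STK38 shRNA array and all 5 control arrays above background. The Src family kinase gene LCK fell by 1.22 (SE 0.207, limma adjusted p = 0.000383). BCL2, which protects from apoptosis, fell by 0.95 at 1 probe set (limma adjusted p = 3.98e-05). Its other tested probe set had a difference of 0.016, with 3 STK38 shRNA arrays and 2 control arrays above background. MYC, on this list too, is described above. Among the other genes that fell were the chemokine receptor gene CXCR4 (-0.88), the transcriptional repressor gene GFI1 (-0.68), the ER chaperone gene HSPA5 (-0.58) and ADA, adenosine deaminase (-0.55). The targets CCNB1 (0.13), HSPA8 (-0.086) and LMO2 (0.10, above only the alternative background, on 4 arrays of each group) did not pass the test. HSPA8 lay near background, with means of 2.75 with the STK38 shRNA and 2.83 in controls, so its small difference says little.

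LCK is also a T cell gene, and MYB is high in immature T cells, so T cell markers were read beside these values. Of 8 on the array, TRBC1, LCK and CD247 were tested and called lower, though CD247 passed the filter only through the control group, and the log2 of the summed level of the 8 ran from 7.79 to 8.10 with the STK38 shRNA and from 8.34 to 8.65 in controls. Most of that sum was TRBC1, which averaged 7.76 ± 0.16 with the STK38 shRNA and 8.27 ± 0.15 in controls (SD, n = 5 each). CD3D, CD3E, CD3G, CD2 and CD5, which define T cells, were not above background on any array, and CD247 was above it on 0 STK38 shRNA arrays and 1 control array. All arrays were of 1 established Burkitt's lymphoma line, and the part of T cells in these values was not tested. Of 4 monocyte, 2 erythroid and 5 epithelial markers, 5 were tested, and their limma adjusted p ran from 0.258 to 0.989.

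G1 and S phase genes that E2F factors control, of which MYBL2 is one, were lower as a group. Of 27 measured genes 20 fell and 0 rose, with a median of -0.74. MCM6, a subunit of the replicative helicase, had values of 6.35, 6.55, 6.26, 6.00 and 6.59 with the STK38 shRNA, against 8.35, 8.13, 8.15, 8.32 and 8.23 in controls, a fall of 1.89 (SE 0.109, limma adjusted p = 1.66e-08). CDC6, which loads that helicase, fell by 1.87 at 1 probe set. Its other probe set had a difference of -0.30, with 0 STK38 shRNA arrays and 3 control arrays above background. PRIM1, the primase subunit, fell by 1.33 and the helicase subunit gene MCM4 by 1.32. E2F3 (0.16) and the cyclin gene CCNE1 (-0.25) did not pass the test. CCNE1 was dim: 2 controls but 0 of the arrays with the STK38 shRNA exceeded background. Against the alternative background these counts were 5 and 3. E2F1 was not above background on any array, and was above the alternative background on 4 arrays of each group.

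Most of the G2 and mitosis genes that MYBL2 and FOXM1 activate did not pass the test. Of 34 measured genes 9 fell, 5 rose and 20 did not pass the test, with a median of -0.041. The share that rose lay near that over all genes, and 3 rose without STK38 shRNA replicate 1 or 3. CENPF, a kinetochore protein gene, had values of 2.76, 2.58, 2.71, 2.28 and 2.83 with the STK38 shRNA, against 5.21, 4.44, 4.93, 4.61 and 4.70 in controls, a fall of 2.15 (SE 0.157, limma adjusted p = 1.65e-07). Its values with the STK38 shRNA lay near the array backgrounds (2.36 to 2.66), and replicate 4 was under its own. TOP2A, topoisomerase II alpha, fell by 1.14, the lamin gene LMNB1 by 1.07 and the mitotic kinase gene AURKA by 0.72. CDC20, an activator of the anaphase promoting complex, rose by 0.37 (SE 0.0965, limma adjusted p = 0.00934), and CDK1, the mitotic kinase, by 0.32 (limma adjusted p = 0.0346). The cyclin genes CCNB1 (0.13) and CCNA2 (0.024) and the kinase gene PLK1 (0.28) did not pass the test. FOXM1 itself averaged 4.83 ± 0.25 with the STK38 shRNA and 4.87 ± 0.23 in controls (SD, n = 5 each), a difference of -0.044 (SE 0.148, limma adjusted p = 0.876).

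The MuvB and DREAM list, with the complex that MYBL2 joins and its pocket protein form, held 8 measured genes, of which 2 fell and 1 rose, with a median of 0.0011. The genes that fell encode the DP partners of E2F factors. TFDP2 had values of 6.76, 6.78, 6.87, 6.67 and 6.73 with the STK38 shRNA, against 7.97, 7.84, 7.88, 7.98 and 8.19 in controls, a fall of 1.21 (SE 0.0847, limma adjusted p = 1.01e-07), and TFDP1 fell by 0.60 (limma adjusted p = 0.00142). RBBP4, a histone-binding MuvB subunit, rose by 0.35 (limma adjusted p = 0.00539) at 1 probe set, and had a difference of 0.18 at the other. The MuvB subunit gene LIN37 (0.25), the repressor E2F4 (-0.063) and the pocket protein gene RBL2 (0.062) did not pass the test.

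Of 14 cofactors and regulators of the family, 4 fell and 2 rose, with a median of -0.026. CEBPB, a bZIP factor that acts with MYB on myeloid promoters, fell by 1.16 (SE 0.151, limma adjusted p = 3.83e-05). ETS1, another partner of MYB, gave signal over background on 0 arrays with the STK38 shRNA and on 4 in controls, and was at least 1.18-fold lower, with measured means of 1.81 ± 0.11 with the STK38 shRNA and 2.69 ± 0.18 in controls (SD, n = 5 each). It passed the filter on dim signal only through the control group, so its place among the 4 that fell supports nothing. CDK2, whose complex with cyclin A phosphorylates MYBL2, fell by 0.56 (SE 0.190, limma adjusted p = 0.0371) although its groups overlapped, and its other probe set had a difference of -0.34 that did not pass the test. The co-activator gene CREBBP was called lower (limma adjusted p = 0.0077), yet 0 arrays with the STK38 shRNA and 2 in controls gave signal over background. EP300, its close relative, had a difference of -0.22 that did not pass the test (limma adjusted p = 0.252). EP300 was dim too, with means of 2.51 with the STK38 shRNA and 2.74 in controls, and 4 arrays of each group above background. HIPK1, from a kinase family that phosphorylates MYB, had values of 6.89, 7.13, 6.96, 7.12 and 7.08 with the STK38 shRNA, against 5.74, 6.36, 6.24, 6.29 and 5.92 in controls. It rose by 0.93 (SE 0.122, limma adjusted p = 4.17e-05), and KMT2A, which works with MYB through menin, rose by 0.52 (limma adjusted p = 0.00832).

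Germinal centre genes, the setting in which MYBL1 is known in B cells, were mostly lower. Of 7 measured genes 6 fell and 0 rose, with a median of -0.60, and of all 10 on the array 7 fell without the filter, with a median of -0.37. MME, the surface peptidase CD10, fell by 1.60 (SE 0.104, limma adjusted p = 6.02e-08), CD38 by 1.49, the forkhead factor gene FOXO1 by 0.80 and BCL6, the repressor that maintains the germinal centre, by 0.60. BCL6 gave signal over background on 3 arrays with the STK38 shRNA and on all 5 in controls. LMO2 (0.10) did not pass the test.

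**Figure D5:**
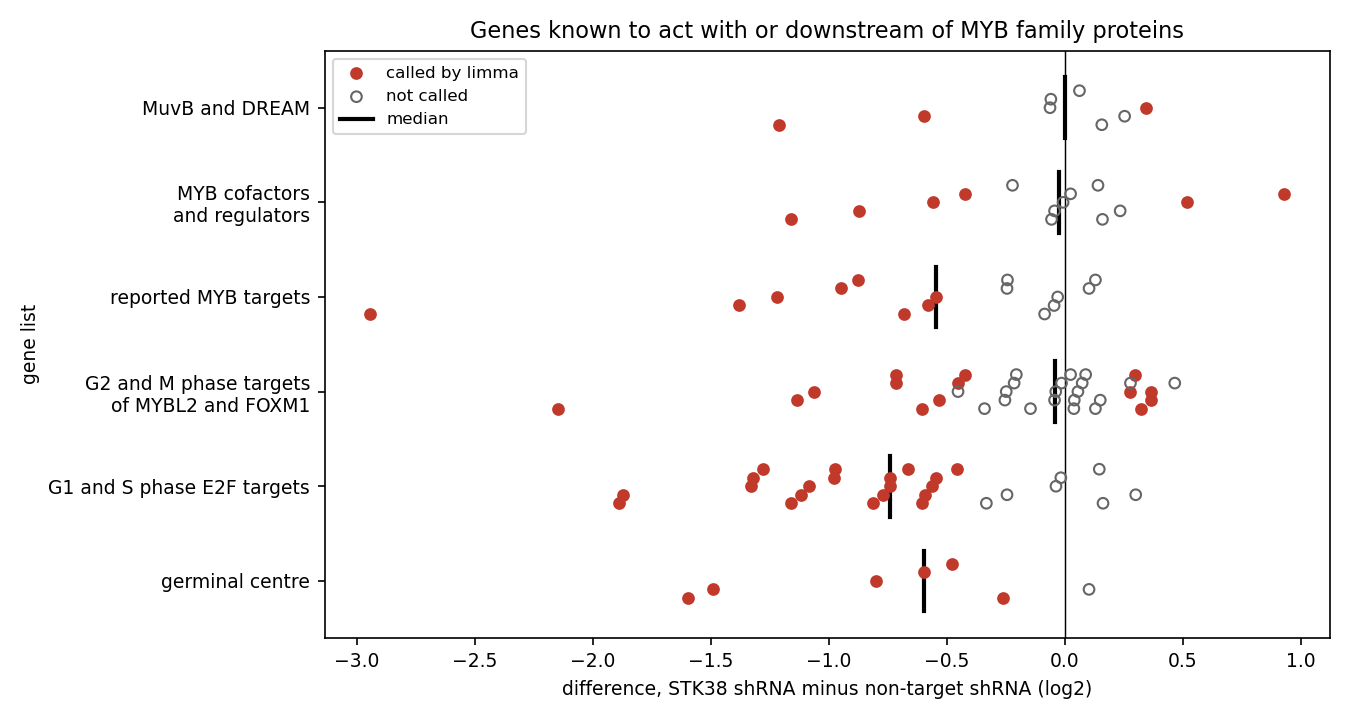
Log2 difference, STK38 shRNA minus non-target shRNA, of each measured gene in the 6 lists; filled points were called by limma, open points were not, and thick lines are medians. The medians are -0.74 for G1 and S phase E2F targets, -0.60 for germinal centre genes and -0.55 for reported MYB targets, and -0.041 for G2 and M phase targets. Without the filter on dim signal these medians were -0.70, -0.37, -0.050 and -0.044, in the same order.

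The genes whose profiles were nearest to each family member were found on the 10 arrays, as the smallest root mean square difference after the control mean of each probe set was subtracted. For MYB 2042_s_at these were CD38, at a distance of 0.092 (log2), the mitochondrial channel gene VDAC1 (0.102), VIM, vimentin (0.114), the co-chaperone gene DNAJC7 (0.148) and IRF4, a B cell and plasma cell transcription factor (0.152). CD38 had values of 5.16, 5.40, 5.16, 5.35 and 5.06 with the STK38 shRNA, against 6.71, 6.79, 6.77, 6.73 and 6.60 in controls. Between 3 and 5 of these 5 genes were among the nearest when 1 STK38 shRNA array was left out.

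For MYBL2 the nearest genes were PFKL, a phosphofructokinase subunit (0.113), the pseudokinase gene TRIB2 (0.125), the DNA helicase gene BLM (0.142), the centrosome gene CEP68 (0.145) and PSMD2, a proteasome subunit (0.145). Between 1 and 3 of these 5 genes were kept when 1 STK38 shRNA array was left out, so the order among near genes rests on single arrays. For MYBL1 160043_at, whose signal lay near background, they were POLR2D (0.104), NAP1L1 (0.117), SUB1 (0.117), VAPA (0.118) and PDHB (0.120), of which 2 to 4 were kept when 1 STK38 shRNA array was left out. These distances follow size of difference and spread, and describe likeness over these 10 arrays.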

How the data were processed

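Total RNA was purified with TRIZOL and columns, labelled with biotin and hybridised to 1-colour HG-U95Av2 arrays, as the labels state. The deposited values are on a log2 scale, as read from their range and from GCRMA and affy, the tools in the submitters' processing notes; GCRMA corrects background by probe sequence, normalizes across arrays and summarises probes. Versions and other steps are not given in the sources used here, scanner files were not analysed here, and the deposited normalization was kept.

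Of 12558 probe sets other than 67 controls, 10943 had 1 gene in the platform annotation, 545 several and 1070 none; symbols were updated through Entrez identifiers to RefSeq (GRCh38.p14). Probe sets with a mean under the 40th percentile (1.93) were left out, leaving 7535. Groups were compared in R 4.3.3 with limma 3.58.1 (lmFit, eBayes with trend, 8 residual degrees of freedom, two-sided), across all probe sets, with Benjamini-Hochberg adjustment at 0.05; the code was tested on simulated data. An array's background was the 90th percentile of 23 mouse, yeast and reverse-strand controls (2.36 to 2.66), which some reverse-strand ACTB and GAPDH probe sets may set high; without these, 17 controls gave 1.89 to 2.18. A bound, "at least N-fold", divides the brighter group by whichever was larger on each dim array, background or signal. It takes the brighter group as measured, so it holds only as far as that group is above background. Of a gene's probe sets, lists use the one with the highest mean.

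Members, lists, tests and background were chosen with earlier results of these data known. Named by rule were all family probe sets, STK38, MYC, up to 4 genes per list (called and larger changes first) and the 5 nearest genes per member; other list genes and single values were chosen after their values were seen. Alternatives were other scalings, filters, array weights, no variance trend, a replicate block, leaving out each array, another choice of probe set and the other background. Plots were drawn with matplotlib 3.10.9.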

Additional observations from a re-analysis of the deposited data

Results flagged for a closer look

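In each group of 5 arrays, the family's probe sets, STK38, MYC and the genes named by rule were searched for an array that lay far from the 4 others, by Dixon's ratio of the gap to the range (critical value 0.71). This was done for 110 groups and found 11 arrays; chance gives about 1 in 20 groups. All 11 lay in the STK38 shRNA group, and 7 were the lowest value on STK38 shRNA replicate 4, the array that stood apart. Of the family, MYB 1476_s_at had 2.52 on that array, with the next array at 3.74, and MYB 1474_s_at had 2.01, with the next at 3.06. Of the other genes, STK38 had 2.46 there at 370_at, CEBPB 5.24, RAG2 2.12, TOP2A 6.36 and BLM 2.99.

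The other 4 were spread over arrays. MYC at 1827_s_at had its highest value, 6.97, on STK38 shRNA replicate 3, and LIN37 its highest, 3.35, on replicate 2. DNAJC7 had its lowest value, 4.68, on replicate 5, and NAP1L1 its lowest, 9.48, on replicate 2. The part of array quality in these values was not tested.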

How the results depend on the processing

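The family was chosen on this comparison, so its calls under other settings support nothing and describe the fits alone. The 6 MYB probe sets above background and MYBL2 were called lower under all 17 alternatives; the MYB 2042_s_at difference ran from -1.53 to -1.47 and that of MYBL2 from -0.93 to -0.75. The count of family probe sets called ran from 7, when the MYBL1 call was lost, to 9 of 11 without the filter, when the dim MYB 41854_at was called too. MYBL1 160043_at was removed by the filter at the 60th percentile. That filter also left 2 of the family's cofactors called lower, against 4, by testing fewer genes. The probe sets changed over the whole array numbered 2256 and ran from 1938 to 2970; with array weights 1619 were higher, against 1064, and 45.5% of calls were lower, against 52.8%. With the replicate number of the titles as a replicate block 2159 changed and 8 family probe sets were called. Same-numbered arrays deviated together with r from -0.21 to 0.19, and 1 of 5 pairs matched its own number best. No pairing by these numbers was seen, but 5 pairs are too few to exclude it. With array weights 3 genes of the MuvB and DREAM list rose, against 1, and its median was 0.17. Among G2 and M phase genes 3 rose without STK38 shRNA replicate 1 or replicate 3, against 5, and among G1 and S phase genes 1 rose under 6 alternatives, against 0. The list counts of genes that fell were otherwise within 1.5 times under the alternatives run. Signal near background limits MYBL1 and the dim MYB probe sets.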
